A study of Mus musculus with 10 samples.

Results

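In all, 10 genes of nitric oxide and cyclic GMP (cGMP) signalling were described in mouse prefrontal cortex: the synthases Nos1 and Nos3, the Nos1 adaptor Nos1ap, the guanylate cyclase subunits Gucy1a1, Gucy1a2 and Gucy1b1, the cGMP-dependent kinases Prkg1 and Prkg2, the phosphodiesterase Pde5a and the dimethylarginine hydrolase Ddah1. They were chosen by gene symbol for their place in the pathway, with earlier results of these data known. All 10 were found among the 15914 protein-coding genes of the deposited table. Bulk RNA sequencing had been done on 10 libraries from wild-type C57BL/6J mice. In 5 libraries, called hypoxia + PBM here, hypobaric hypoxia (low oxygen under reduced air pressure) had been followed by photobiomodulation, a treatment with laser light. In the other 5, called hypoxia, the mice had been exposed to hypobaric hypoxia alone. The labels title the hypoxia libraries as controls, and exposure to hypobaric hypoxia is shared by both groups. Mice kept at normal pressure are not analysed here. Age, sex, light dose and exposure time are not given in the labels. Whether the 5 libraries of a group came from separate animals is not stated either, so p-values measure only the spread between libraries, and this may be technical.

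Nitric oxide is made from arginine by the synthases, in the cortex mainly by neuronal Nos1 and in blood vessel walls by endothelial Nos3. It binds the haem group of soluble guanylate cyclase, a dimer of an alpha subunit (from Gucy1a1 or Gucy1a2) and the beta subunit from Gucy1b1, which then turns GTP into cGMP. cGMP activates the kinases encoded by Prkg1 and Prkg2 and is broken down by phosphodiesterases such as Pde5a, and in the cortex this pathway is known for retrograde signalling at synapses and for the relaxation of small vessels.

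Levels are in FPKM, a unit that divides the fragments of a gene by its length and by the size of the library, so that levels can be compared between genes. Between 29283937 and 35957148 reads per library on the listed genes lay behind these values. Of 8 markers of cortical excitatory neurons, none was called and 7 had a positive log2 change, as did 50% of all tested genes. The median log2 change of these 8 markers was 0.09. Their summed level was 1300 to 1370 FPKM in hypoxia + PBM and 1230 to 1300 FPKM in hypoxia, so the group ranges met only at their ends. The part of these cells in the values of Gucy1a1 and Nos1ap, given below, was not tested. The most abundant of these markers were Camk2a, at 721 ± 24.6 FPKM in hypoxia + PBM and 664 ± 4.04 FPKM in hypoxia (limma adjusted p = 0.0762), and Slc17a7, at 507 ± 14.4 FPKM in hypoxia + PBM and 493 ± 21.6 FPKM in hypoxia (SD, n = 5 each; limma adjusted p = 0.607). Markers of medium spiny neurons, which belong to the striatum, were detected as well. Of 16 such markers, 14 passed the test as lower in hypoxia + PBM and none as higher, against 1.7% and 1.15% of all tested genes. The summed level of the 16 markers was 214 to 367 FPKM in hypoxia + PBM libraries and 412 to 733 FPKM in hypoxia libraries. Hypoxia + PBM replicate 4 and hypoxia replicate 1 stood apart by a low summed level of choroid plexus genes (8.45 and 87.3 FPKM, against 243 to 634 FPKM in the other 8 libraries). In bulk tissue, fewer cells of a type and less RNA per cell cannot be told apart.

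Gucy1a1, the alpha-1 subunit of soluble guanylate cyclase, was the only one of the 10 genes that passed the test, and it was 1.2-fold higher in hypoxia + PBM. Nos1ap was 1.18-fold higher on the same scale of mean FPKM and fell just short of the threshold. Pde5a and Prkg2 had every hypoxia + PBM library above every hypoxia library at low levels, without passing. The beta subunit gene Gucy1b1 and both synthases stood at ratios of mean FPKM between 0.96 and 1.02. The test was limma-trend on log2(FPKM + 1) over 14406 genes, with p-values adjusted by Benjamini-Hochberg and a threshold of 0.05 for a call. Of all tested genes 2.85% were called in either direction and 1.15% as higher in hypoxia + PBM, against 1 of the 10 genes here. Of the 10 genes, 9 had a positive log2 fold change, as did 50% of all tested genes. Their median log2 fold change was 0.10, and that of all tested genes was 0.00011. In 3 of the 10 genes (Gucy1a1, Prkg2 and Pde5a) every hypoxia + PBM library was above every hypoxia library, as for 2.67% of all tested genes. The reverse held for none of the 10 and for 2.87% of all tested genes, which makes 5.53% in either direction. Because the 10 genes were chosen with earlier results of these data known, these counts are a description. No test was run over the list.

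**Figure D1:**
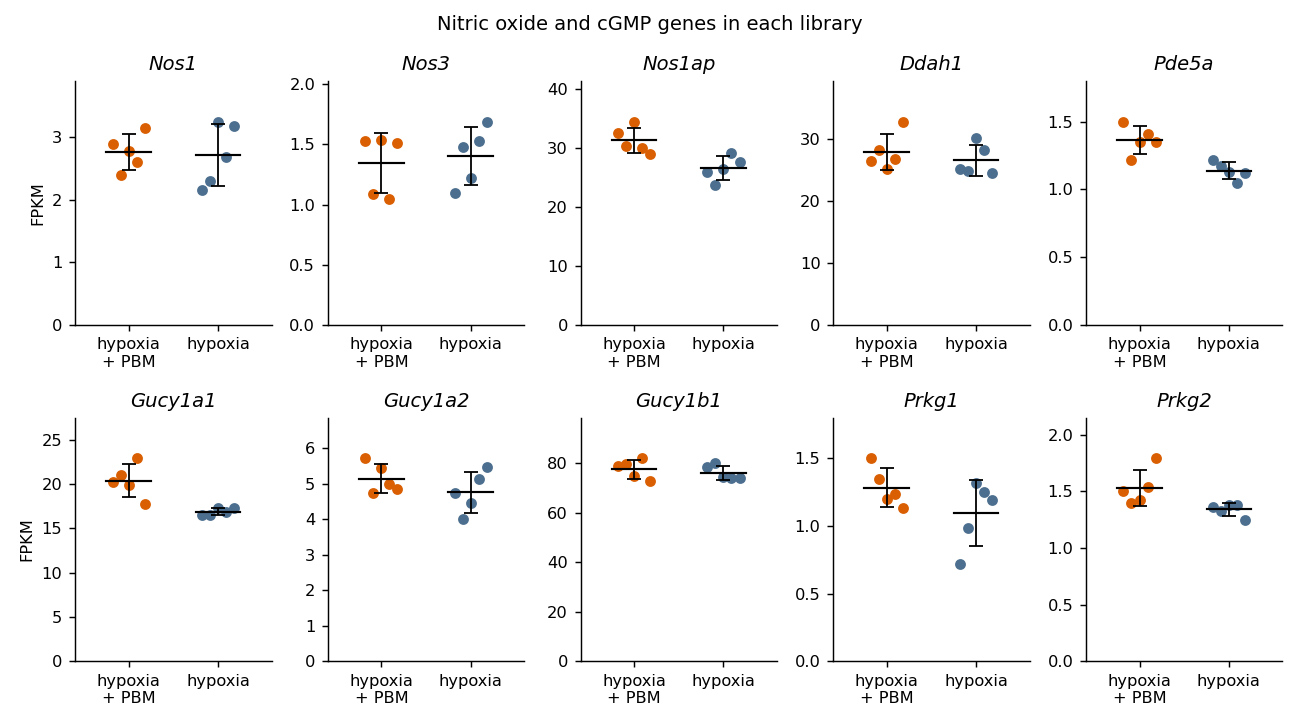
FPKM of the 10 genes in each library (points, 5 per group), with the group mean and SD (black bar and whiskers) and each vertical axis starting at 0. Gucy1a1 lies at 17.8 to 22.9 FPKM in hypoxia + PBM and at 16.5 to 17.3 FPKM in hypoxia, while Nos1, Nos3 and Gucy1b1 overlap widely.

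The order of levels was led by the cyclase beta subunit. Over all 10 libraries Gucy1b1 averaged 76.9 FPKM (range 72.8 to 82.0), Nos1ap 29.0 FPKM (23.7 to 34.5) and Ddah1 27.2 FPKM (24.5 to 32.8). Gucy1a1 followed with 18.6 FPKM (16.5 to 22.9), Gucy1a2 with 4.96 FPKM (4.00 to 5.72) and Nos1 with 2.74 FPKM (2.15 to 3.25). The last 4 were close together, with Prkg2 at 1.43, Nos3 at 1.37, Pde5a at 1.25 and Prkg1 at 1.19 FPKM. The ranges of Nos1ap and Ddah1 overlapped, as did those of neighbours among the last 4, so their order was within the spread between libraries. Each other pair of neighbours was separated in all 10 libraries.

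The synthases did not pass the test. Nos1, the neuronal synthase, had 2.89, 2.40, 2.78, 2.61 and 3.15 FPKM in hypoxia + PBM replicates 1 to 5, against 2.15, 2.30, 3.25, 2.68 and 3.18 FPKM in hypoxia replicates 1 to 5. The groups overlapped, and the spread was wider in hypoxia. Its log2 change of 0.03 had a 95% interval from -0.16 to 0.22 (limma adjusted p = 0.894). Nos3, the endothelial synthase, ranged from 1.05 to 1.54 FPKM in hypoxia + PBM and from 1.10 to 1.69 FPKM in hypoxia, with between 135 and 231 reads per library. Its log2 change of -0.04 had a 95% interval from -0.22 to 0.14 (limma adjusted p = 0.847). Leaving out 1 library changed the sign of either synthase's change in 3 of 10 fits. Exons of Nos3 overlap those of Atg9b on the opposite strand in the GENCODE annotation. The labels do not state whether strand was used in counting or how shared reads were treated. Part of the Nos3 reads could belong to Atg9b, or shared reads could be missing from Nos3. Atg9b averaged 0.803 FPKM in hypoxia + PBM and 0.826 FPKM in hypoxia. An annotated antisense RNA overlaps Nos1 exons in the same way.

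Marker levels of cells that use these synthases are given beside them. Of 10 markers chosen for cortical inhibitory interneurons, a part of which make Nos1, none was called. Some of the 10 mark inhibitory neurons in general, also those of the striatum. The summed level of the 10 markers was 569 to 637 FPKM in hypoxia + PBM and 598 to 672 FPKM in hypoxia. Of 13 endothelial markers, 2 were called, both higher in hypoxia + PBM (Cldn5 and Tek, named after their values were seen), against 1.15% of all tested genes. Among the 13 markers 9 changes were positive and 4 negative, where 50% of all tested genes had a positive change. The median log2 change of the 13 markers was 0.13. The summed level of the endothelial markers was 91.2 to 109 FPKM in hypoxia + PBM and 90.1 to 105 FPKM in hypoxia. No marker of any list used here was at 0 in any library. The part of these cells in the synthase values was not tested.

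Nos1ap encodes an adaptor that binds neuronal nitric oxide synthase and links it to other signalling proteins. It had 32.5, 30.4, 34.5, 30.1 and 29.0 FPKM in hypoxia + PBM replicates 1 to 5, against 26.0, 23.7, 26.4, 29.2 and 27.6 FPKM in hypoxia replicates 1 to 5. Only hypoxia replicate 4 reached into the range of hypoxia + PBM, just above replicate 5 of that group. The means were 31.3 ± 2.18 FPKM in hypoxia + PBM and 26.6 ± 2.03 FPKM in hypoxia (SD, n = 5 each). The log2 change was 0.23 ± 0.057 (SE) with a 95% interval from 0.10 to 0.35, and the limma adjusted p of 0.0509 missed the threshold. It passed without hypoxia + PBM replicate 5 (limma adjusted p = 0.0417) and without hypoxia replicate 4 (0.0234), and also by limma-voom on recovered reads (0.0318), with a filter of 1 FPKM (0.0409) and with upper-quartile scaling (0.0468). With the striatal marker mean as a covariate its log2 change was 0.07 ± 0.095 (SE; limma adjusted p = 0.985). The striatal marker mean separated the groups by itself, so its part and that of the treatment cannot be told apart. Exons of Nos1ap overlap those of the predicted gene Gm7694 on the same strand, which averaged 0.351 FPKM in hypoxia + PBM and 0.386 FPKM in hypoxia.

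Ddah1 encodes the enzyme that degrades asymmetric dimethylarginine, an inhibitor of the synthases. It ranged from 25.2 to 32.8 FPKM in hypoxia + PBM and from 24.5 to 30.1 FPKM in hypoxia. The groups overlapped across most of their range, and the log2 change of 0.06 had a 95% interval from -0.09 to 0.22 (limma adjusted p = 0.67). Without hypoxia + PBM replicate 5, its highest library, the log2 change was 0.0049. Of 9 astrocyte markers, 2 were called, both higher in hypoxia + PBM (Aldh1l1 and Slc1a2, named after their values were seen), where 1.15% of all tested genes were. The list as a whole had 4 positive and 5 negative log2 changes, with a median of -0.0080. The summed level of these markers was 945 to 1020 FPKM in hypoxia + PBM and 930 to 994 FPKM in hypoxia. Their part in the Ddah1 values was not tested.

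The cyclase subunits gave the one called gene. Gucy1a1 had 20.2, 21.0, 19.9, 22.9 and 17.8 FPKM in hypoxia + PBM replicates 1 to 5, against 16.5, 16.5, 17.3, 16.9 and 17.3 FPKM in hypoxia replicates 1 to 5. The groups did not overlap, but the lowest hypoxia + PBM library (replicate 5, 17.79 FPKM) lay close to the highest hypoxia library (17.35 FPKM), and the hypoxia libraries lay much closer together than those of hypoxia + PBM. The means were 20.4 ± 1.85 FPKM in hypoxia + PBM and 16.9 ± 0.403 FPKM in hypoxia (SD, n = 5 each), and each library held between 2615 and 4099 reads of the gene. The log2 change was 0.25 ± 0.053 (SE) with a 95% interval from 0.14 to 0.37 (limma adjusted p = 0.0259), and the gene ranked 225 of 14406 by p. With single libraries left out, Gucy1a1 stayed called in 4 of 10 cases. It lost its call without hypoxia + PBM replicate 1 (limma adjusted p = 0.0576), 2 (0.0619) or 3 (0.054) and without hypoxia replicate 1 (0.0626), 2 (0.0556) or 5 (0.0541), while its log2 change stayed between 0.21 and 0.30 in all 10. Without both libraries low in choroid plexus genes its log2 change was 0.20 ± 0.051 (SE; limma adjusted p = 0.0958).

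Gucy1a2, the alternative alpha subunit, and Gucy1b1, the beta subunit shared by both alpha forms, did not pass. Gucy1b1 had 78.8, 79.9, 74.7, 82.0 and 72.8 FPKM in hypoxia + PBM replicates 1 to 5, against 78.5, 80.0, 74.5, 74.0 and 73.9 FPKM in hypoxia replicates 1 to 5. These values overlapped fully, and the log2 change of 0.03 had a 95% interval from -0.06 to 0.11 (limma adjusted p = 0.762). That upper bound lies below the lower bound of Gucy1a1, although the difference between the 2 genes was not itself tested. Gucy1a2 ranged from 4.73 to 5.72 FPKM in hypoxia + PBM and from 4.00 to 5.49 FPKM in hypoxia. Its log2 change of 0.10 had a 95% interval from -0.06 to 0.25 (limma adjusted p = 0.496), so a change as large as that of Gucy1a1 lies at the edge of what these libraries allow for it. Single libraries moved both: without hypoxia replicate 2 the log2 change of Gucy1a2 was 0.05, and without hypoxia + PBM replicate 4 that of Gucy1b1 was 0.0064. Gucy1a1 and Gucy1b1 are next to each other among the protein-coding genes of chromosome 3 in the RefSeq annotation, and Gucy1a2 lies on chromosome 9. In the GENCODE annotation a microRNA gene overlaps exons of Gucy1a1 on the same strand.

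The balance of subunit transcripts followed from these levels. The FPKM of Gucy1a1 was 0.262 ± 0.013 of that of Gucy1b1 in hypoxia + PBM and 0.222 ± 0.0131 in hypoxia (SD, n = 5 each). These ratios did not overlap, with 0.244 to 0.279 in hypoxia + PBM and 0.206 to 0.233 in hypoxia. The ratio of Gucy1a2 to Gucy1b1 was 0.0592 to 0.0728 in hypoxia + PBM and 0.050 to 0.0742 in hypoxia, and the groups overlapped. Gucy1a1 exceeded Gucy1a2 by 3.52 to 4.58 times in hypoxia + PBM and by 3.14 to 4.13 times in hypoxia, again with overlap. In each of the 10 libraries the beta subunit transcript thus exceeded the sum of both alpha transcripts on the FPKM scale. The ratios are given as a description, since they were set up with the levels known.

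**Figure D2:**
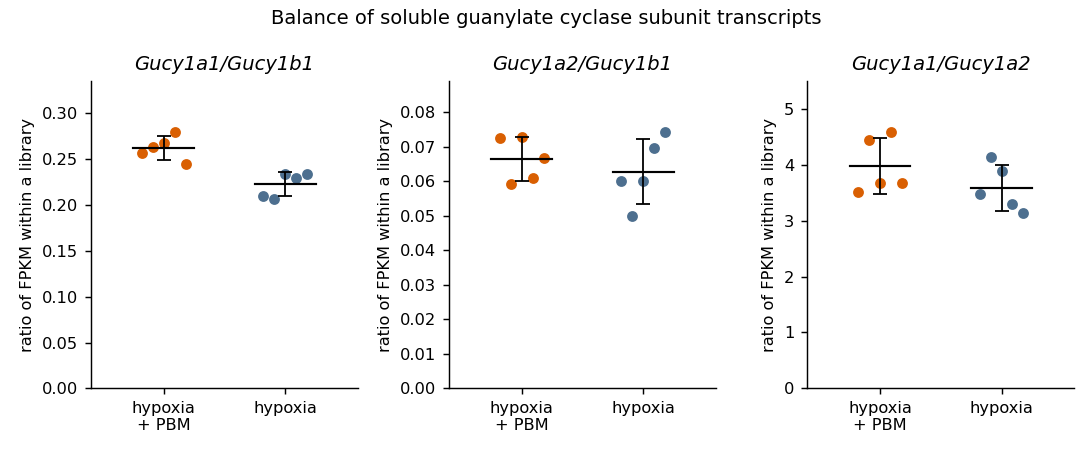
Ratios of FPKM between cyclase subunit genes within each library (points, 5 per group), with the group mean and SD (black bar and whiskers). The Gucy1a1 to Gucy1b1 ratio is 0.244 to 0.279 in hypoxia + PBM and 0.206 to 0.233 in hypoxia, while the ratios with Gucy1a2 overlap.

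The striatal markers given above were lower in hypoxia + PBM, and striatal medium spiny neurons are known to express soluble guanylate cyclase. The part of these cells in the values of Gucy1a1 was not tested. As a covariate, the striatal marker mean left the log2 change of Gucy1a1 at 0.27 ± 0.10 (SE), no longer called (limma adjusted p = 0.779). That mean was 2.80 to 3.53 log2(FPKM + 1) in hypoxia + PBM and 3.64 to 4.40 in hypoxia, so it separated the groups by itself and its part and that of the treatment cannot be told apart. The genes whose deviations from their group means were most like those of Gucy1a1 over the 10 libraries were Cyp46a1, the brain cholesterol 24-hydroxylase (Pearson r of log2(FPKM + 1) 0.95), Zfp296 (0.91), Ppp1r3g (0.91), Cd2bp2 (0.90) and Trp63 (0.90). None of these 5 genes was called between the groups, and Trp63 was at a mean of 0.0961 FPKM. The 5 were picked as the highest of all tested genes over only 10 libraries. Whether chance alone gives values of r this high was not tested. Among the other 9 genes described here the values of r lay between -0.58 (Prkg2) and 0.58 (Gucy1b1). These points share library and depth.

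The kinases and Pde5a were at 1 to 2 FPKM in most libraries. Prkg1, the type I kinase of vessels and many neurons, ranged from 1.13 to 1.50 FPKM in hypoxia + PBM and from 0.72 to 1.32 FPKM in hypoxia. The groups overlapped, with hypoxia replicate 1 lowest (without it the log2 change was 0.06), and the log2 change of 0.13 had a 95% interval from -0.04 to 0.30 (limma adjusted p = 0.382). Prkg2, the membrane-bound type II kinase, had 1.50, 1.40, 1.42, 1.54 and 1.79 FPKM in hypoxia + PBM replicates 1 to 5, against 1.36, 1.33, 1.38, 1.38 and 1.25 FPKM in hypoxia replicates 1 to 5. Every hypoxia + PBM library was above every hypoxia library, by 1.398 against 1.380 FPKM at the nearest. The log2 change was 0.11 ± 0.05 (SE; limma adjusted p = 0.25).

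Pde5a encodes a phosphodiesterase specific for cGMP. It had 1.50, 1.22, 1.35, 1.41 and 1.35 FPKM in hypoxia + PBM replicates 1 to 5, against 1.22, 1.17, 1.13, 1.05 and 1.12 FPKM in hypoxia replicates 1 to 5. The groups met at 1.220 FPKM in hypoxia + PBM and 1.219 FPKM in hypoxia. Exons of Pde5a overlap those of an annotated transcript on the opposite strand. Part of the Pde5a reads could belong to that transcript, or shared reads could be missing from Pde5a. The means were 1.36 ± 0.101 FPKM in hypoxia + PBM and 1.14 ± 0.0619 FPKM in hypoxia (SD, n = 5 each), a ratio of 1.2, and the log2 change on the scale with a pseudocount of 1 was 0.14 ± 0.046 (SE; limma adjusted p = 0.11). At these levels the pseudocount shrinks the fold: by limma-voom on recovered reads the log2 changes were 0.26 for Pde5a (adjusted p = 0.0752), 0.26 for Prkg1 (0.303) and 0.19 for Prkg2 (0.253), with none of them called. Of 11 markers of pericytes and smooth muscle, cells known to express Pde5a and Prkg1, 1 was called (Cspg4, named after its value was seen). It was higher in hypoxia + PBM, where 1.15% of all tested genes were called higher. Of the 11 changes 10 were positive, against 50% of all tested genes, and the median log2 change of the 11 was 0.12. The summed level of these markers was 41.7 to 49.8 FPKM in hypoxia + PBM and 32.5 to 45.0 FPKM in hypoxia. Their part in the values of Pde5a and Prkg1 was not tested.

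**Figure D3:**
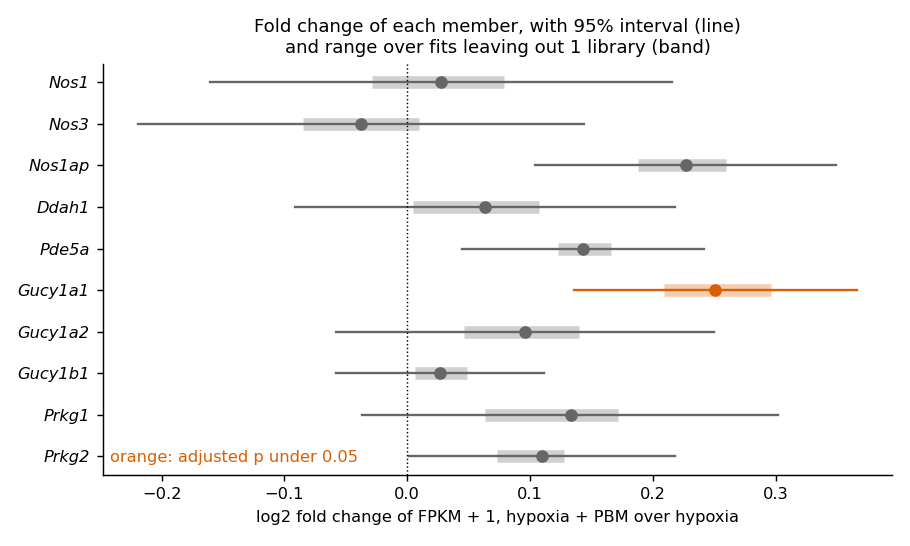
Log2 fold change of FPKM + 1, hypoxia + PBM over hypoxia, for each of the 10 genes (point), with its 95% interval (line) and the range over the 10 fits that left out 1 library (shaded band). Gucy1a1 (orange) was the called gene at 0.25, and the bands of Nos1 and Nos3 cross 0.

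In the authors' deposited table, 3 of the 10 genes had a q-value under 0.05, all higher, where 3.02% of its 15914 genes were higher at that threshold and 6.4% passed it in either direction. They were Gucy1a1 (authors' deposited table: fold 1.21, q = 0.000389), Nos1ap (fold 1.18, q = 0.00651) and Pde5a (fold 1.2, q = 0.0443). In the same authors' deposited table Nos1, Nos3 and Gucy1b1 had q-values of 0.925, 0.876 and 0.785.

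Beyond these 10 genes, 58 further genes of the pathway were listed by role. Of these, 52 were in the table and 45 were tested. Only 1 was called higher in hypoxia + PBM (Cav1) and 2 were called lower (Pde1b and Pde10a), against 1.15% and 1.7% of all tested genes. The median log2 change of the 45 genes was -0.011, with 20 positive and 25 negative changes. Nos2, the inducible synthase, was at 0.0335 FPKM in hypoxia + PBM and 0.0282 FPKM in hypoxia and was too low to be tested.

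The phosphodiesterase genes that fell are both known for high levels in striatal neurons. Pde1b, a calcium and calmodulin activated phosphodiesterase of cGMP and cAMP, averaged 50.3 ± 6.38 FPKM in hypoxia + PBM and 73.9 ± 10.3 FPKM in hypoxia (SD, n = 5 each), a log2 change of -0.54 ± 0.10 (SE; adjusted p = 0.0149 by limma). Its groups did not overlap, with 40.2 to 55.5 FPKM in hypoxia + PBM and 59.0 to 84.5 FPKM in hypoxia, and it stayed called whichever single library was left out. Pde10a, the dual-specificity phosphodiesterase typical of medium spiny neurons, averaged 3.78 ± 0.68 FPKM in hypoxia + PBM and 6.74 ± 1.90 FPKM in hypoxia (SD, n = 5 each), a log2 change of -0.67 ± 0.15 (SE; adjusted p = 0.0327 by limma). Pde10a lost its call without hypoxia + PBM replicate 1 (limma adjusted p = 0.0646), 2 (0.0624) or 3 (0.0711), without hypoxia replicate 1 (0.0704), 3 (0.0699) or 5 (0.0634), and with no filter (0.0503). Its log2 change in those 6 fits with 1 library left out lay between -0.69 and -0.56. With the striatal marker mean as a covariate the log2 changes were 0.0069 for Pde1b and 0.11 for Pde10a. That mean separated the groups by itself, so its part and that of the treatment cannot be told apart. Without both libraries low in choroid plexus genes the log2 change was -0.56 for Pde1b (limma adjusted p = 0.0592) and -0.70 for Pde10a (0.0976), about as large as with all 10 libraries. The 8 other tested genes of the phosphodiesterase list had log2 changes between -0.10 (Pde9a) and 0.03 (Pde1a and Pde11a), none called. Among them Pde2a, a cGMP-stimulated phosphodiesterase of cortical neurons, was at 63.6 FPKM in hypoxia + PBM and 64.6 FPKM in hypoxia.

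Of 13 tested genes for synthase partners, arginine supply and nitric oxide handling, Cav1 was called. It encodes caveolin-1, a membrane scaffold that binds and restrains endothelial nitric oxide synthase. Cav1 averaged 3.64 ± 0.227 FPKM in hypoxia + PBM and 2.82 ± 0.292 FPKM in hypoxia (SD, n = 5 each), a log2 change of 0.28 ± 0.06 (SE; adjusted p = 0.0249 by limma), with no overlap between 3.44 to 3.98 FPKM in hypoxia + PBM and 2.46 to 3.25 FPKM in hypoxia. It lost its call without hypoxia + PBM replicate 3 (limma adjusted p = 0.061) and without hypoxia replicate 1 (0.0604), 2 (0.0535) or 5 (0.0606). The call was also lost without both libraries low in choroid plexus genes (0.0998) and with the striatal covariate (0.76), at log2 changes of 0.28 and 0.32. The summed endothelial markers, given above with Nos3, overlapped between the groups. The 13 markers had a median log2 change of 0.13, with 2 called higher, and their part in Cav1 was not tested. Asl, argininosuccinate lyase of arginine synthesis, averaged 4.82 FPKM in hypoxia + PBM and 5.47 FPKM in hypoxia and did not pass (limma adjusted p = 0.169). Dlg4, the postsynaptic scaffold PSD-95 that tethers neuronal synthase, was at 122 FPKM in hypoxia + PBM and 120 FPKM in hypoxia.

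None of the remaining genes of the pathway was called. Of the 6 genes for the synthase cofactor tetrahydrobiopterin, those with the smallest p were Qdpr, which recycles it, with a change of -0.15 ± 0.072 in log2 (SE; limma adjusted p = 0.281), and Gch1, which starts its synthesis, with 0.13 ± 0.076 (SE; limma adjusted p = 0.385) on 5 to 47 reads per library. Of 7 tested particulate cyclase and natriuretic peptide genes, the receptor cyclases Gucy2e and Gucy2g had log2 changes of -0.15 ± 0.047 (SE; limma adjusted p = 0.0949) and -0.16 ± 0.061 (SE; limma adjusted p = 0.161). For Gucy2e and Gch1, both under 1 FPKM, the pseudocount of 1 shrinks the fold. With a pseudocount of 0.1 the log2 change was -0.42 for Gucy2e and 0.53 for Gch1. By limma-voom on recovered reads it was -0.51 for Gucy2e (adjusted p = 0.0513) and 0.84 for Gch1 (0.259). In the authors' deposited table Gucy2e had a q-value of 0.0126. Of 9 tested effector, substrate and exporter genes, the potassium channel gene Kcnma1 had 0.18 ± 0.064 (SE; limma adjusted p = 0.145) and the myosin phosphatase subunit gene Ppp1r12a 0.09 ± 0.039 (SE; limma adjusted p = 0.248).

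**Figure D4:**
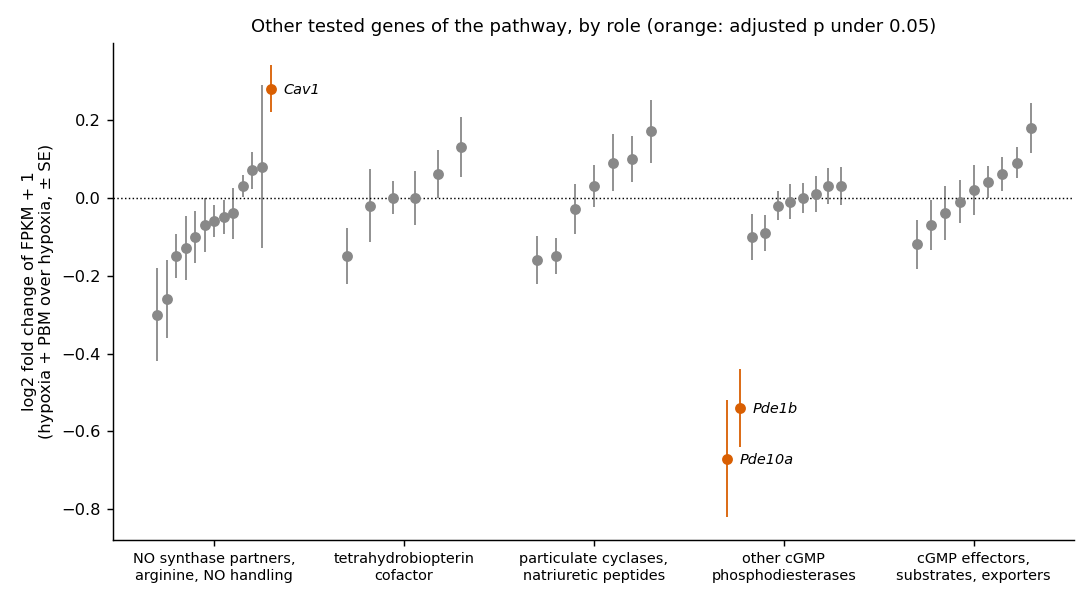
Log2 fold change of FPKM + 1 (hypoxia + PBM over hypoxia, points with SE) for the 45 other tested genes of the pathway in 5 groups by role, with called genes in orange. Cav1 is at 0.28, Pde1b at -0.54 and Pde10a at -0.67, and the other 42 genes lie between -0.30 and 0.18.

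**Figure D5:**
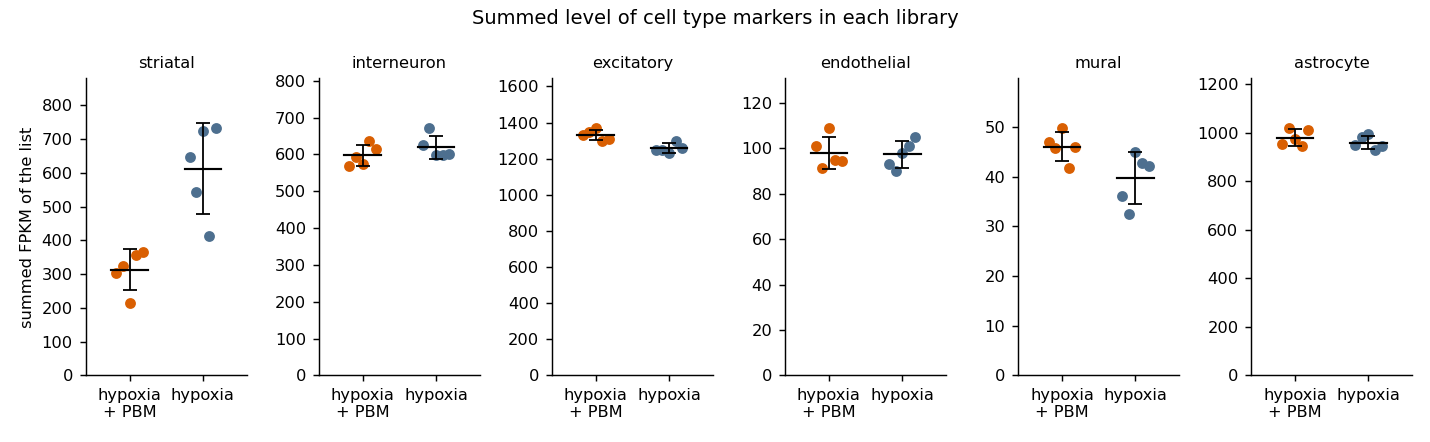
Summed FPKM of the marker lists in each library (points, 5 per group), with the group mean and SD (black bar and whiskers). The striatal sum is 214 to 367 FPKM in hypoxia + PBM and 412 to 733 FPKM in hypoxia, and the excitatory sum is 1300 to 1370 FPKM in hypoxia + PBM and 1230 to 1300 FPKM in hypoxia. The interneuron, endothelial, mural and astrocyte sums overlap between the groups.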

How the data were processed

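Prefrontal cortex RNA from 10 libraries was sequenced, 5 per group, with groups and replicate numbers taken from the labels. The submitters' processing notes name fastp 1.0, HISAT2, HTSeq and the build GRCm39, with no order or settings. One deposited table was used. Per the file headers, the authors computed FPKM per gene and library, and group means as a signal (reads divided by DESeq2 size factors, averaged). The authors also deposited a fold change, its log2, a p-value and a q-value, quoted where their table is named. The reference annotations used here are of GRCm38, so only gene names, chromosomes, order and overlaps were taken from them.

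The test was limma-trend (limma 3.58.1, R 4.3.3) on log2(FPKM + 1), two-sided, with the group as the only term, for genes with at least 0.1 FPKM in at least 5 libraries. Each log2 fold change is the mean of hypoxia + PBM minus that of hypoxia on this scale, which understates changes of low genes. Read counts were recovered from the FPKM columns and the group means (100% of values whole within 0.01 reads) and served for depth and limma-voom with TMM scaling. Precision falls with the number of reads, given beside the low genes. Libraries of one group differed by more than counting noise (chi-square per gene 5.97 to 13.8). The 10 genes and all gene lists were chosen with earlier results of these data known. Named genes were the 10 genes, and of each list of other pathway genes those called, or the pair with the smallest p. Dlg4, Nos2, Nostrin, Arg2, Pde2a, Pde9a, Pde1a and Pde11a were named beside that rule. The alternatives were another pseudocount, filter, scaling or tool, a replicate block, a striatal covariate and each library left out.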

Additional observations from a re-analysis of the deposited data

Results flagged for a closer look

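In Pde10a, the value of 2.60 FPKM in hypoxia + PBM replicate 3 was far below the rest of its group, with the other 4 libraries at 3.87 to 4.29 FPKM. The summed striatal markers were also lowest in that library, at 214 FPKM. It was the one such library in 40 groups of 5 looked at (20 genes in both groups), where chance gives about 1 in 20.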

How the results depend on the processing

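Among 180 alternative values for the 10 genes, 159 kept direction and side of the threshold, 9 lost a call, 5 gained one and 7 changed sign. The number of the 10 genes called was 1, and it was 2 with a filter of 1 FPKM, with upper-quartile scaling and by limma-voom on recovered reads (Nos1ap joining Gucy1a1). It was 0 with the replicate block, with the striatal covariate and without both libraries low in choroid plexus genes, the last chosen after seeing the data. Leaving out 1 library gave 0 to 2. The count over all tested genes was 411 (166 higher, 245 lower in hypoxia + PBM), and upper-quartile scaling split 423 calls into 210 higher and 213 lower, with a median shift of 0.011 log2. It was 256 with the replicate block, 0 with the striatal covariate by limma (850 genes at an unadjusted p under 0.05) and 78 without both libraries low in choroid plexus genes. Leaving out 1 library gave 200 to 538. Of the other pathway genes 3 were called, 0 with the covariate, 0 without both libraries and 1 to 4 with 1 library left out.

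Changes of sign touched the uncalled Nos1 and Nos3 and the called Pde1b and Pde10a. Pde1b was at 0.0069 and Pde10a at 0.11 log2 with the striatal covariate, and Nos1 at -0.015 without both libraries. Leaving out 1 library moved Nos1 between -0.029 and 0.079 and Nos3 between -0.085 and 0.0092. The causes were not tested. With the replicate block the limma adjusted p of Gucy1a1 was 0.0575 and that of Pde10a 0.0519. Correlations of deviations between libraries of equal number lay between -0.0721 and 0.205. Only 1 of 5 hypoxia + PBM libraries correlated best with its own number. These 5 values cannot exclude a pairing by number. The 1 FPKM filter left no value for Gch1 and Gucy2e. Depth limits Nos3, Pde5a and the kinases, at 135 to 408 reads per library.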
